A study of Drosophila melanogaster x Drosophila simulans and Drosophila melanogaster and Drosophila simulans with 186 samples.

Results

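The 8 Dpp pathway genes described here were followed along the anterior-posterior axis of blastoderm embryos. They are the ligand genes dpp and scw, the genes of 5 secreted regulators of these ligands (tld, srw, sog, tsg and cv-2), and brk, which encodes a nuclear repressor of the pathway's targets. They were chosen by gene symbol as genes of this pathway, and all 8 are among the 13577 genes in the expression files. Dpp and Scw are secreted ligands of the bone morphogenetic protein family that pattern the dorsal side of the early fly embryo. Sog, made in the ventral neuroectoderm, and Tsg bind the ligands and move them dorsally, and the metalloprotease Tld cuts Sog and sets the ligands free. Srw is a relative of Tsg, Cv-2 binds the ligands and can both help and hinder them at the cell surface, and Brk silences Dpp target genes where signalling is low.

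The study asked where along the axis the 2 species' copies of a gene are used differently in hybrids. Embryos at mid-stage 5, grown at 25 degrees, were cut into slices 14 µm thick, and poly-adenylated RNA of each slice was sequenced without strand information. The mother is named first, so that melXsim is a hybrid of a D. melanogaster mother (line DGRP-340) and a D. simulans father (line w501), and simXmel is the reverse. There were 3 melXsim embryos, 2 simXmel embryos, and 1 embryo of each parental strain, melXmel and simXsim, which makes 186 slices of 7 embryos. No allele was edited and no agent was given. The embryo was the replicate in every test, the parental embryos are given as values only, and the labels do not say whether embryos came from separate cages, so a p-value measures the spread between these embryos. A slice holds the whole dorsal to ventral extent, so a level is an average around the circumference.

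Levels are FPKM, scaled to transcript length and sequencing depth and so comparable between genes. Allele-specific expression (ASE) is the difference between D. simulans and D. melanogaster reads divided by their sum, so that 1 is all D. simulans and -1 is all D. melanogaster. FPKM were tabulated for 169 slices and ASE for 178, of which 126 were hybrid slices, and the allele counts of a kept slice totalled 683392 to 3758730. Of the anterior markers, oc, ems, btd and gt were higher anterior to the middle in all 7 embryos, and bcd in 6. The posterior markers byn, cad, fkh, pgc, osk, nos and Abd-B were higher posterior to it in all 7, and gcl in 6. Summed over the list, dorsal markers averaged 108 to 165 FPKM in the 7 embryos, markers of the ventral mesoderm 275 to 439 and those of the ventral neuroectoderm 33.6 to 96.5, so every embryo held both sides. Fewer cells of a type and less RNA per cell cannot be told apart in such slices. Slice 21 of melXsim embryo 2 and slice 3 of simXmel embryo 2 held 110 and 77.1 FPKM of the pole cell gene pgc although neither lies at the posterior end. Leaving both out changed 1 call of these genes, that of scw between the anterior and posterior parts, and its value is given with it.

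In release 5 coordinates of the D. melanogaster genome, dpp is the locus 2L:2428372-2459823 on the plus strand and scw is 2L:19699379-19700968 on the minus strand. The gene tld is at 3R:20575453-20579232, plus strand, and srw at 3L:4282956-4283478, minus strand. The X chromosome holds sog (X:15497316-15527467, minus strand), tsg (X:11882095-11882981, minus strand) and brk (X:7201972-7205165, plus strand), and cv-2 is at 2R:17242520-17266969, minus strand. The whole of scw lies inside the locus of Lar, whose embryo means were 2.16 to 3.40 FPKM, and the whole of brk lies inside the locus given for CG1677, at 165 to 252 FPKM. Without strand, reads of such a pair can be told apart by splicing only. The authors' 95% interval of a slice's FPKM reached a median of 7.88% to either side of the value for sog and of 33.9% for scw, with the other 6 genes between these.

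By mean FPKM over the 5 hybrid embryos, tsg was the most abundant of the 8 genes and cv-2 the least. The means were 77.0 ± 27.9 (SD, n = 5) for tsg, 45.5 ± 12.4 for srw, 40.5 ± 10.1 for tld, 39.2 ± 15.4 for sog, 27.3 ± 5.52 for brk, 19.9 ± 4.98 for dpp, 11.3 ± 7.76 for scw and 8.63 ± 1.09 for cv-2. The gaps from tsg to srw, from brk to dpp and from dpp to scw were wider than the SD of either gene. The other neighbours in this order, srw and tld, tld and sog, sog and brk, and scw and cv-2, did not differ by more than the larger SD.

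**Figure D1:**
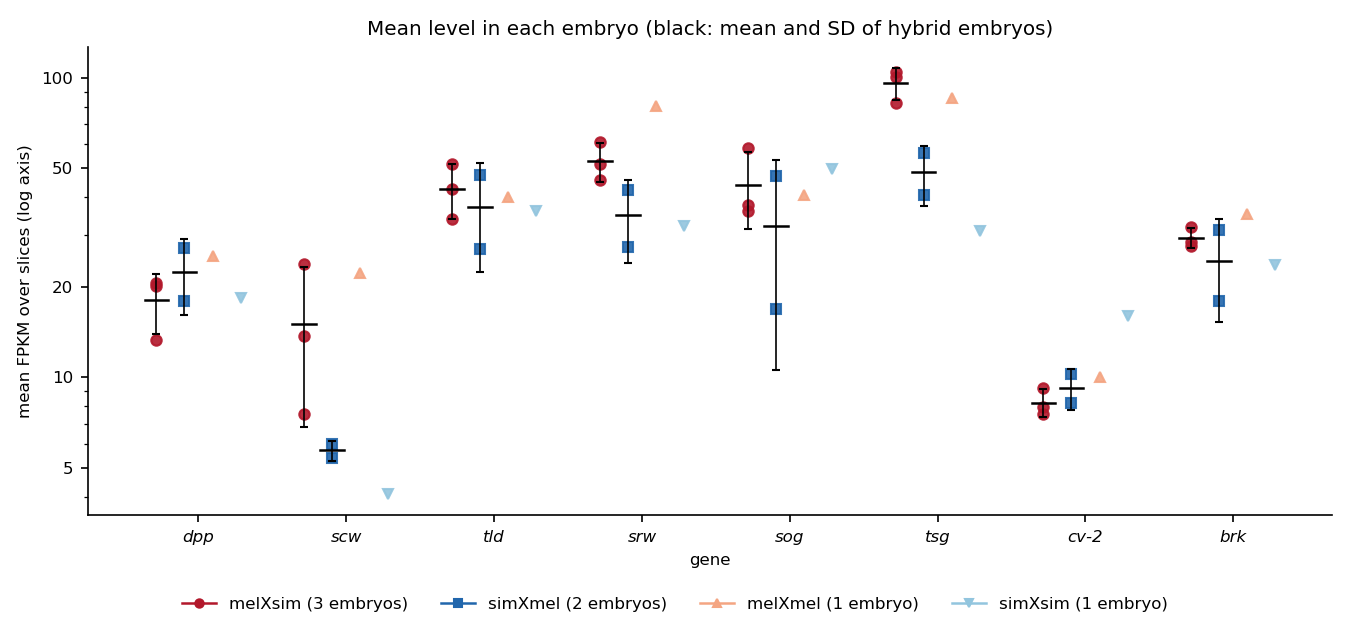
Mean FPKM over the slices of each embryo (log axis) for the 8 genes. Points are embryos, coloured by cross, and black lines are the mean and SD of the 3 melXsim and of the 2 simXmel embryos. The directions of the cross do not overlap for scw, srw and tsg. All 3 are lower in simXsim than in melXmel, as are dpp, tld and brk. The share of all genes without such overlap was not counted.

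The first comparison asked whether the level of a gene depends on the species of the mother. The 3 genes tsg, scw and srw were lower in every simXmel embryo than in every melXsim embryo, an order whose share over all genes was not counted. Among the 8 genes tsg alone passed the test. Its mean FPKM was 101, 82.7 and 105 in melXsim embryos 1, 2 and 3, and 56.2 and 40.5 in simXmel embryos 1 and 2. The change in tsg was -0.99 ± 0.29 (SE) on the log2(FPKM + 1) scale, with a limma adjusted p of 0.0394. Among all 6869 genes tested, 7.99% were called higher in melXsim and 9.39% higher in simXmel, with a median difference of 0.12, so 1 of 8 is close to the background. The tsg call was lost when any embryo other than melXsim embryo 2 was left out, with adjusted p-values of 0.0773 to 0.232, and under 5 other settings (0.0537 to 0.197), among them library batch as a term and the replicate block. The gene is X-linked, and whether the X chromosomes of each embryo play a part was not tested. Within the first library batch the log2 difference was -0.83, and within the later ones it was -1.18.

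Mean scw was 13.8, 7.56 and 23.9 FPKM in the melXsim embryos and 6.01 and 5.39 in the simXmel embryos. All 3 melXsim values were higher, but they were spread widely themselves, and the difference of -1.13 ± 0.41 missed the threshold (adjusted p = 0.0869). It was -1.52 and passed without melXsim embryo 2, the lowest of the 3 (adjusted p = 0.0126). Mean srw was 61.0, 45.6 and 51.4 FPKM against 27.3 and 42.3, a log2 difference of -0.61 ± 0.30 (adjusted p = 0.202). In the parental embryos scw stood at 22.3 FPKM in melXmel and 4.09 in simXsim, srw at 80.7 and 32.0, and tsg at 85.9 and 30.8. For each of these 3 genes simXsim lay below melXmel, as the simXmel hybrids lay below the melXsim hybrids.

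The other 5 genes overlapped between the directions of the cross. The log2 differences, simXmel minus melXsim, were 0.30 ± 0.32 for dpp, -0.23 ± 0.33 for tld, -0.58 ± 0.42 for sog, 0.14 ± 0.27 for cv-2 and -0.29 ± 0.30 for brk, with adjusted p-values from 0.384 to 0.773. Mean sog was 47.0 FPKM in simXmel embryo 1 and 16.9 in simXmel embryo 2, which was the lowest of the 5 hybrid embryos for tld, sog and brk. Without it, the differences of these 3 genes were 0.18, 0.13 and 0.08. For cv-2 the mean was highest in simXsim, at 16.01 FPKM, against 10.01 in melXmel and 7.52 to 10.2 in the hybrids.

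All 8 genes were patterned along the axis. Both ligand genes were higher at the ends of the embryo than in the trunk, and the 5 regulators and brk were higher in the trunk. The ends are the outer 10% of the length at each pole, and the trunk is 20 to 80%. Over all genes 4.35% were called higher in the trunk and 16% higher at the ends, against 6 and 2 of the 8 genes here. No gene of the 8 had a difference between the directions of the cross that passed the test, as 0.0728% of all genes did. Each embryo was also split at its middle into an anterior and a posterior part, and between these tld and brk were higher anteriorly and tsg and cv-2 posteriorly, with 7.98% and 5.05% of all genes called in these directions, and again 0.0728% differing between crosses.

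**Figure D2:**
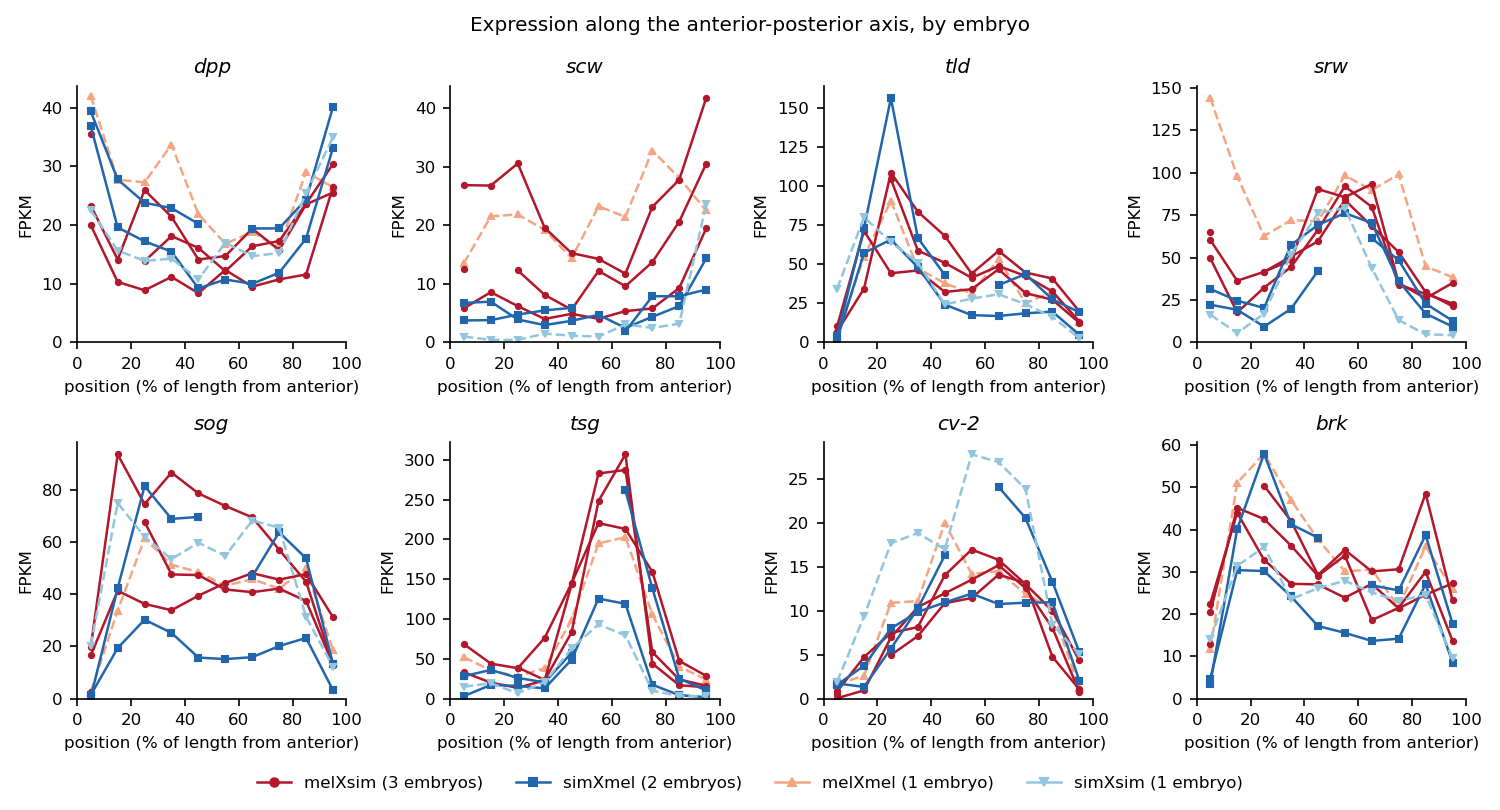
FPKM by position in bins of 10% of the embryo's length (0 anterior, 100 posterior), 1 line per embryo. Solid lines are hybrids and dashed lines the parental embryos. In the hybrids dpp rises at both ends and scw at the posterior end, and tld and brk are highest near 20% of the length. The gene tsg peaks between 59.6 and 70%, and sog and cv-2 are spread over much of the trunk. Gaps are bins without an FPKM value.

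The pathway's main ligand gene, dpp, was lowest in the middle of the embryo and highest at both poles. In the trunk of melXsim embryos 1 to 3 it stood at 15.6, 9.999 and 19.01 FPKM, and in simXmel embryos 1 and 2 at 21.1 and 12.4. At the anterior end it was 35.4, 19.99, 23.3, 39.4 and 36.9 FPKM in the same order, and at the posterior end 30.4, 26.5, 25.5, 40.8 and 33.2. Both ends were above the trunk in 5 of 5 hybrid embryos, and trunk minus ends was -1.004 ± 0.145 on the log2 scale (adjusted p = 0.0059). The 2 parts did not differ past the threshold (0.07 ± 0.09, adjusted p = 0.694).

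Both species' copies of dpp were used almost alike, with less of the D. simulans copy anteriorly than posteriorly in each hybrid embryo. Mean ASE over the slices was -0.102, -0.0724 and -0.104 in the melXsim embryos and -0.0692 and -0.0366 in the simXmel embryos, and the log2 allele ratios of -0.27 and -0.15 in the 2 directions did not pass the test. In the anterior part ASE was -0.181, -0.183, -0.168, -0.142 and -0.110, and in the posterior part it was -0.0240, 0.0470, -0.0498, 0.00921 and 0.00587. Anterior values were lower in 5 of 5 embryos without overlap, and the difference of -0.15 ± 0.02 missed the threshold (adjusted p = 0.0541). At the anterior end dpp ASE was -0.342, -0.331 and -0.223 in melXsim and -0.164 and -0.0893 in simXmel, below the trunk in 5 of 5 embryos, and in simXmel the bin from 10 to 20% of the length was lower still, at -0.244 and -0.257. In the parental embryos dpp stood at 42.0 FPKM in melXmel against 22.5 in simXsim at the anterior end, and at 26.5 against 35.0 at the posterior end.

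Allele counts by SNP are usable for dpp, scw and srw, because their coordinates are the same in the count files and in the annotation. In dpp, 55 SNPs had at least 20 hybrid reads, and the D. simulans share had a median of 45.7% among the 24 coding SNPs and of 45.5% among the 9 SNPs in the 3′ UTR. A single SNP in the 3′ UTR, T2459377A (the D. melanogaster base, the position on 2L and the D. simulans base), carried 1060 D. melanogaster reads and 1 D. simulans read, a share of 0.0943% (Wilson 95% interval 0.0166 to 0.532%). In melXmel this position had 439 D. melanogaster reads, and in simXsim it had 0 reads of either allele. Intervals on reads cover counting error only, since reads after amplification are not independent molecules. With reads summed over SNPs in each embryo, mean dpp ASE was -0.117 ± 0.031 (SD over 5 embryos) over all SNPs, -0.0788 ± 0.029 without this SNP and -0.0518 ± 0.047 over coding SNPs. Coding SNPs, which leave it out, gave -0.129 ± 0.033 in the anterior part and 0.0317 ± 0.076 in the posterior part.

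The second ligand gene, scw, whose product pairs with Dpp, had the strongest species bias of the 5 autosomal genes and a different balance at the posterior end. It was highest at the posterior end in 5 of 5 hybrid embryos, where it stood at 30.5, 19.5 and 41.8 FPKM in melXsim and 9.88 and 14.3 in simXmel. Trunk levels were 10.2, 5.15, 19.1, 5.84 and 3.72 FPKM. Anterior end levels were closer to these, at 12.5, 5.82, 26.9, 3.74 and 6.75 FPKM, and below the trunk in simXmel embryo 1. Trunk minus ends was -0.84 ± 0.15 on the log2 scale (adjusted p = 0.0126), and the call was lost without melXsim embryo 1 (0.053). The anterior part lay below the posterior part in 5 of 5 embryos, by -0.44 ± 0.12, which missed the threshold (adjusted p = 0.0643) and passed without melXsim embryo 3 (0.0108) or without the 2 slices that hold pole cell RNA (0.041).

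The D. melanogaster copy of scw was the more abundant one in every hybrid embryo. Mean ASE was -0.398, -0.434 and -0.327 in melXsim and -0.257 and -0.299 in simXmel, and the log2 allele ratio was -1.18 (limma adjusted p = 0.000666) and -0.82 (0.013) in the 2 directions. Over all 4610 autosomal genes tested, 2.26% were called D. melanogaster-biased in both directions and 2.86% D. simulans-biased, and scw was 1 of 5 autosomal genes here. The allele counts gave log2 ratios of -0.78 and -0.64, with edgeR adjusted p-values of 0.00747 and 0.044 and DESeq2 adjusted p-values of 0.000313 and 0.0221. The limma call was lost without simXmel embryo 1 (adjusted p = 0.109) or 2 (0.158), which leaves a single embryo in that direction, and with slices weighted by FPKM (0.0705).

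In the deposited ASE of the whole gene, the bias of scw was absent or turned over at the posterior end. ASE there was -0.0118, 0.277, 0.185, 0.367 and 0.411 in the 5 embryos, against -0.495, -0.520, -0.395, -0.331 and -0.522 in the trunk. The posterior end was above the trunk in 5 of 5 embryos, by 0.483 to 0.934. The 2 simXmel embryos have 1 and 2 slices with ASE at this end. A step at 92% of the length fitted the ASE of scw with R2 = 0.483, the share of variance between slices that position accounts for. Trunk against both ends together, the test across all genes, gave -0.42 ± 0.10 and did not pass (adjusted p = 0.156), and the anterior end itself was at -0.630 to -0.0667.

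The parental embryos showed the same contrast between regions in total expression. In melXmel scw was at 13.5 FPKM at the anterior end, 22.6 in the trunk and 22.5 at the posterior end, while in simXsim it was at 0.992, 1.53 and 23.6. The trunk differed 14.8-fold between the 2 embryos and the posterior end 1.05-fold. Allele counts were also summed over coding SNPs, where a read across several SNPs can count at each. The D. melanogaster allele had 1900 such counts in the trunk of melXmel, and the D. simulans allele 119 in the trunk of simXsim. At the posterior end these counts were 327 and 317. The simXsim trunk level of scw is below the embryo means of Lar, in which scw lies.

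The size of the scw bias depended on which SNPs were read. Among SNPs with at least 20 hybrid reads, the D. simulans share had a median of 38.0% over 42 coding SNPs, with a range of 29.3 to 50%, and of 7.94% over 14 SNPs in the 3′ UTR. At T19699386G, C19699403G and G19699462C, all in the 3′ UTR near the end of the annotated gene, the share was 4.76, 4.88 and 1.56%. Mean ASE was -0.304 ± 0.060 over all SNPs, -0.233 ± 0.049 over coding SNPs and -0.643 ± 0.081 over the others. Over coding SNPs alone the trunk was at -0.397 ± 0.058 and the posterior end at 0.333 ± 0.19 (SD, n = 5). Over the other SNPs the trunk was at -0.700 ± 0.106 and the posterior end at -0.252 ± 0.260, so in the mean the D. melanogaster copy stayed ahead there. The D. melanogaster copy was thus ahead over coding SNPs too, by less. The contrast between trunk and posterior end was at least as large over coding SNPs as over all SNPs, and smaller over the others.

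**Figure D3:**
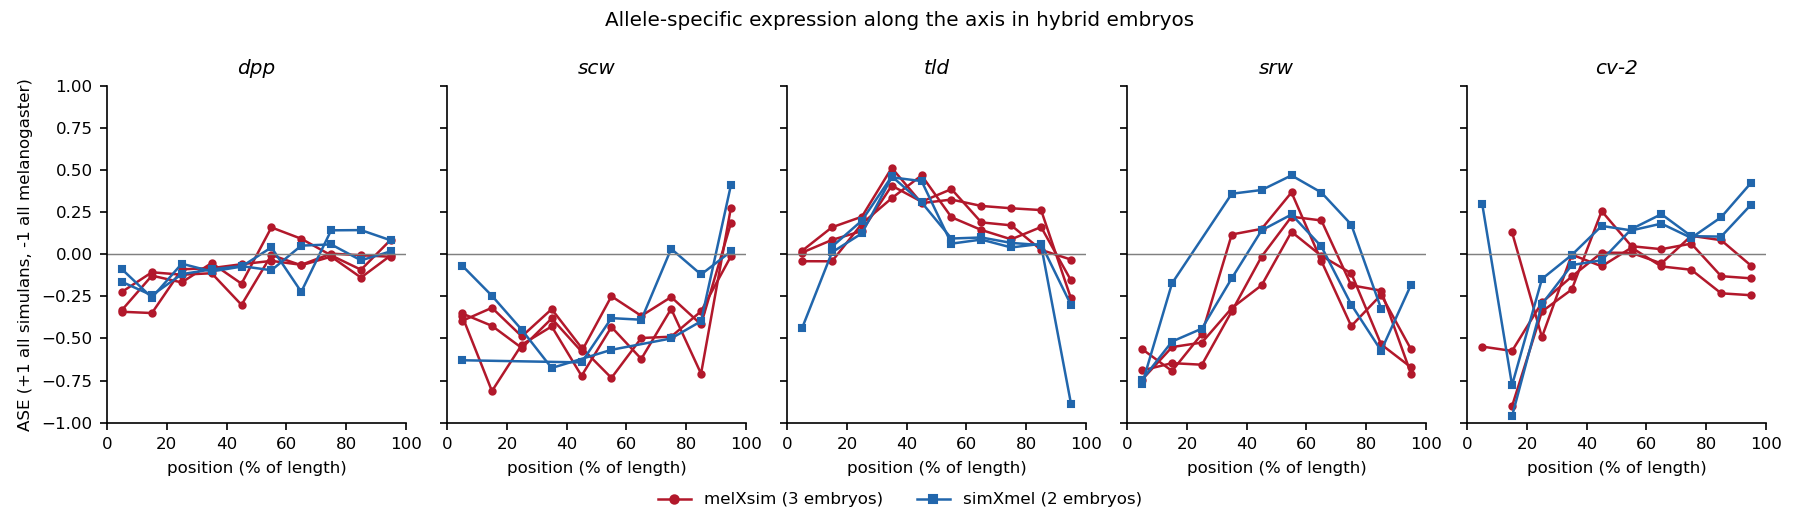
ASE by position, in bins of 10% of the length, for the 5 autosomal genes in the 5 hybrid embryos, 1 line per embryo. At 0 both alleles are equal. scw is mostly below 0 up to the last bin, tld and srw are highest in the middle and fall towards both ends, dpp lies a little below 0 in the anterior, and cv-2 is lowest between 10 and 20% in 4 of the 5. A slice on a border is drawn in the more posterior bin.

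The protease gene tld was a trunk gene with an anterior maximum. Its smoothed peak was at 24.1, 17.3 and 24.1% of the length in melXsim and at 22 and 20.4% in simXmel, with peak levels of 91.0, 62.5, 109, 129 and 78.2 FPKM. At the anterior end it was at 6.56, 10.2, 6.83, 4.03 and 1.85 FPKM, and at the posterior end at 13.3, 12.5, 19.9, 12.7 and 4.85. Trunk minus ends was 2.49 ± 0.12 (adjusted p = 0.000113), and the anterior part was above the posterior part by 0.80 ± 0.07 (adjusted p = 0.000643). In simXsim the tld peak lay further forward, at 12.96% of the length against 20.4% in melXmel, and the anterior end held 34.3 FPKM against 4.04.

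The D. simulans copy of tld was ahead in the trunk and behind at the posterior end. Trunk ASE was 0.258, 0.310 and 0.235 in melXsim and 0.198 and 0.183 in simXmel. At the posterior end it was -0.0315, -0.261, -0.155, -0.315 and -0.887, the last from a single slice. At the anterior end, where simXsim stood above melXmel, ASE was 0.0101, 0.0208 and -0.0411 in melXsim and -0.438 in simXmel embryo 1. No slice of simXmel embryo 2 had a value there. Between 30 and 40% of the length the 5 embryos read 0.408, 0.513, 0.333, 0.457 and 0.463, which in the mean was the highest of the 10% bins. In tld the trunk was above the ends in 5 of 5 embryos, by 0.268 to 1.07, and the difference of 0.58 ± 0.08 missed the threshold (adjusted p = 0.076). With ends of 20% at each pole it was 0.305 and passed (0.0153). In melXmel and simXsim the tld trunk was at 48.2 and 38.3 FPKM, the opposite order to the copies in the hybrid trunk. The posterior end was at 13.3 and 2.60 FPKM, the same order as the copies there.

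The anterior part of tld was more D. simulans than the posterior part in 5 of 5 embryos, by 0.16 ± 0.02 (adjusted p = 0.0441). Over 4546 genes, 1.34% were called in this direction, 0.88% in the other, and 0.594% differed between the directions of the cross. The tld call was lost on leaving out any of the 5 embryos, with adjusted p-values of 0.107 to 0.161. Mean ASE of tld over all slices was 0.165, 0.191 and 0.131 in melXsim and 0.0544 and 0.107 in simXmel. The log2 allele ratio of tld passed in melXsim (0.47, adjusted p = 0.0367) and not in simXmel (0.23, 0.356), and their difference was not tested. The depth behind the ASE of tld and cv-2 is unknown, since their allele counts could not be used.

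The relative of tsg, srw, was highest in the middle of the embryo, with smoothed peaks at 64.8, 51.9 and 53.7% of the length in melXsim and 70 and 50% in simXmel. Trunk levels were 67.8, 55.4, 60.0, 36.0 and 53.9 FPKM, anterior end levels 65.2, 49.6, 60.4, 22.2 and 31.5, and posterior end levels 35.0, 22.9, 21.3, 9.53 and 9.33. Trunk minus ends was 0.85 ± 0.07 (adjusted p = 0.0006), and the 2 parts did not differ past it (-0.17 ± 0.07, adjusted p = 0.156). The anterior end was close to the trunk in melXsim and below it in simXmel. In melXmel the anterior end was the highest region, at 144 FPKM, 8.80-fold above the 16.4 of simXsim. The trunk of melXmel was 1.83-fold above that of simXsim.

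At both ends of hybrid embryos most srw RNA came from the D. melanogaster copy. Anterior end ASE was -0.690, -0.564 and -0.744 in melXsim and -0.771 and -0.745 in simXmel, with both mothers alike. The posterior end was at -0.709, -0.564, -0.671 and -0.182 in the 4 embryos with values. In the trunk ASE was -0.157, -0.0904, -0.172, 0.346 and -0.0857, and between 50 and 60% of the length all 5 embryos were above 0, at 0.223, 0.368, 0.133, 0.469 and 0.237. As levels of each copy, the D. melanogaster copy stood at 39.997 ± 14.6 FPKM at the anterior end and 27.01 ± 7.19 in the trunk, and the D. simulans copy at 7.22 ± 3.34 and 29.2 ± 3.003 (SD, n = 5).

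Mean srw ASE over all slices was -0.309, -0.264 and -0.353 in melXsim, and 0.160 and -0.227 in simXmel, where the 2 embryos had opposite signs. The log2 allele ratio of srw was -0.92 in melXsim (adjusted p = 0.0113) and -0.10 in simXmel (0.787), and -0.54 (0.083) and 0.077 (0.843) from allele counts in edgeR, and the difference between the directions was not tested. The contrast of srw between trunk and ends was positive in 5 of 5 embryos, from 0.472 to 1.12. Its mean of 0.66 ± 0.10 missed the threshold (adjusted p = 0.0903), and passed with ends of 20% (0.52, adjusted p = 0.0405) and without simXmel embryo 2 (0.0337). In simXmel embryo 1, which reads 0.346 in the trunk, the ends hold a single slice with ASE. A Gaussian curve centred at 54% of the length gave R2 = 0.703, the highest of the 5 autosomal genes and rank 8 of 4323 genes. The correlation of ASE with that curve was 0.786 to 0.897 within the 5 embryos, as a description over slices that share an embryo. Over all 19 SNPs, which are coding, the counts put the trunk at 0.0558 ± 0.18 and the ends at -0.672 ± 0.067. At A4283074C the D. simulans share was 27.8% (519 and 200 reads, Wilson 95% interval 24.7 to 31.2%), the lowest of the 19, whose median was 45.1%. Its share was 34.8% in the trunk and 4.60% at the anterior end.

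**Figure D4:**
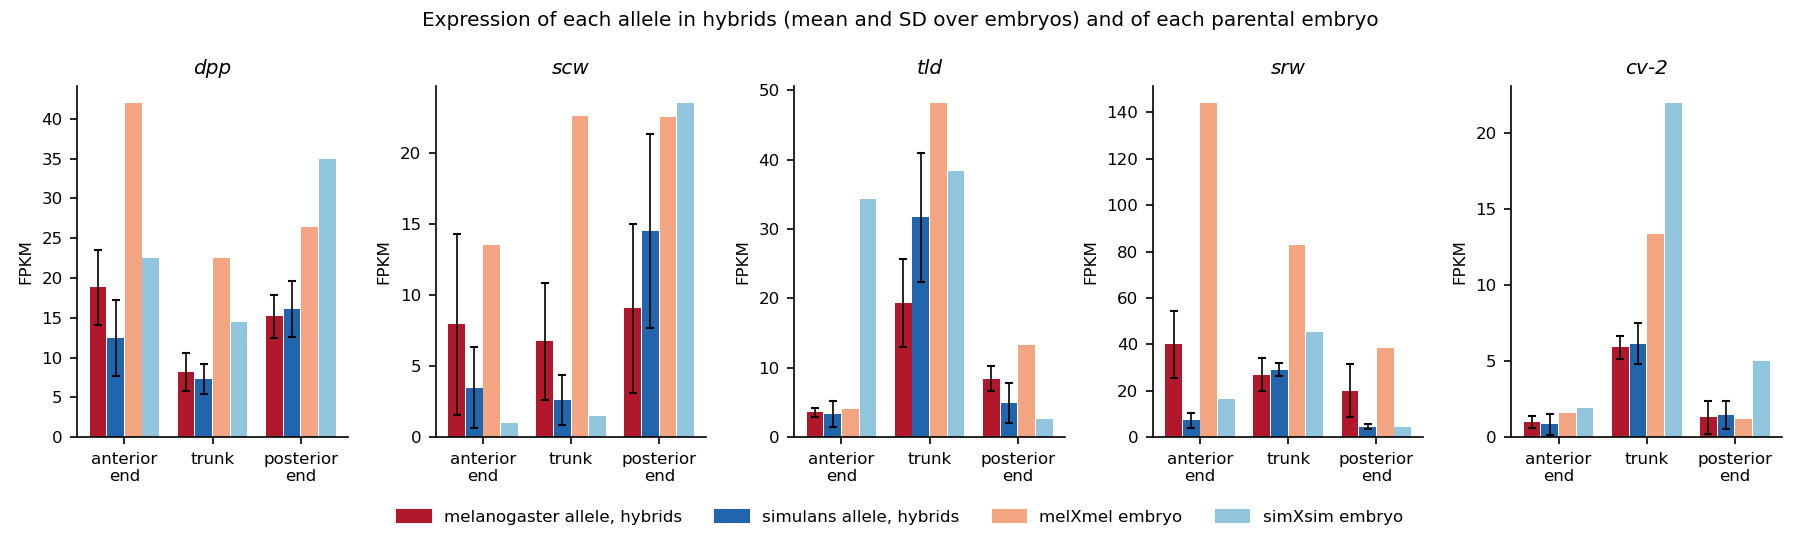
Level of each species' copy in the 5 hybrid embryos (dark bars, mean and SD; FPKM split by ASE) beside the FPKM of the melXmel and simXsim embryos (light bars, 1 embryo each, no error). Regions are the outer 10% at each pole and 20 to 80% of the length. For scw the 2 copies and the 2 parents differ in the trunk and not in the same direction at the posterior end, and for srw both pairs differ more at the ends than in the trunk.

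The gene tsg was expressed in a band behind the middle. Its smoothed peak was at 61.1, 59.6 and 68.5% of the length in melXsim and at 70 and 61.1% in simXmel, with 318, 302, 223, 205 and 146 FPKM. The level was at least 50% of the peak from 39.0 to 48.6% at the anterior border to 69.0 to 80.5% at the posterior border. Trunk minus ends was 2.63 ± 0.29 (adjusted p = 0.00224), and the posterior part was above the anterior part (anterior minus posterior -1.39 ± 0.14, adjusted p = 0.00144). The peak was at 61.1% and 216 FPKM in melXmel and at 57.4% and 105 FPKM in simXsim.

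The gene of the Sog antagonist filled the trunk in every hybrid but simXmel embryo 2, and its anterior and posterior parts did not differ past the threshold. Trunk sog was 46.97, 72.7 and 41.1 FPKM in melXsim and 66.5 and 20.4 in simXmel, and anterior end sog was 2.402, 19.7, 16.5, 0.518 and 1.38. The difference of trunk and ends was 2.57 ± 0.28 (adjusted p = 0.00226) and anterior minus posterior part was 0.16 ± 0.12 (adjusted p = 0.447). The anterior border, where the level passes 50% of its peak, was at 7.62 to 13.8% of the length in the hybrids. The posterior border was at 53.3% in simXmel embryo 2 and at 80.3 to 97.9% in the others. In simXsim the anterior end held 20.3 FPKM of sog against 2.47 in melXmel, with 1 embryo each. The tld peak also lay further forward in that simXsim embryo. The anterior end of sog ranged from 2.402 to 19.7 FPKM among the melXsim embryos alone, and whether slices of different embryos match in position was not tested.

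The gene cv-2 was expressed across the trunk. Its smoothed peak in hybrids was behind the middle, at 64.8, 71.2 and 68.5% of the length in melXsim and at 70 and 79.6% in simXmel. In simXmel embryo 2 the highest single slice was at 27.8%. The smoothed peak was at 46.3% in melXmel and at 57.4% in simXsim. Trunk levels of cv-2 in the hybrids were 10.4, 12.4, 11.7, 15.5 and 10.4 FPKM, and its ends were between 0.042 and 4.34 FPKM. The trunk exceeded the ends by 2.47 ± 0.19 (adjusted p = 0.000583) and anterior minus posterior part was -0.67 ± 0.07 (adjusted p = 0.00187). The ASE of cv-2 was -0.103, -0.114 and -0.124 in melXsim and 0.0917 and 0.0114 in simXmel, and neither direction passed the test. Its anterior part was more D. melanogaster than its posterior part in 5 of 5 embryos, by -0.27 ± 0.04, which missed the threshold (adjusted p = 0.0727). Between 10 and 20% of the length the cv-2 values were -0.902, -0.574, 0.130, -0.778 and -0.962, from 1 or 2 slices each, where its level was 0.936 to 4.72 FPKM in the 4 embryos with FPKM values.

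The repressor gene brk was expressed over most of the trunk, with a smoothed peak at 12.96 to 24.1% of the length in the hybrids. Its trunk level was 36.2, 30.4, 26.9, 36.2 and 18.97 FPKM, its anterior end 12.98, 20.5, 22.4, 3.52 and 4.71, and its posterior end 23.3, 13.7, 27.3, 11.3 and 8.54. In melXsim embryo 3 the posterior end was level with the trunk. The trunk was above the ends by 1.21 ± 0.16 (adjusted p = 0.00404), and with ends of 20% it was 0.31 and no longer passed (adjusted p = 0.125). The anterior part was above the posterior part by 0.37 ± 0.08 (adjusted p = 0.0279), and that call was lost without melXsim embryo 3 (0.054), simXmel embryo 1 (0.0958) or simXmel embryo 2 (0.132).

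For the 3 X-linked genes ASE is given by embryo, without a test. A male fly embryo has an X chromosome from its mother alone, and the sex of each embryo is not in the labels. An ASE near -1 or 1 in these genes is therefore no measure of allele bias, since a bias and a single X chromosome cannot be told apart. In melXsim embryos 1 and 2 and simXmel embryo 1 both copies were read, with mean ASE of -0.0483, -0.0885 and -0.0323 for sog, -0.140, -0.130 and -0.135 for tsg, and -0.0489, -0.244 and -0.0758 for brk. In melXsim embryo 3 the means were -0.996, -0.995 and -0.993 for sog, tsg and brk, from 17, 5 and 6 slices. In simXmel embryo 2 they were 0.989 for sog, from 1 slice, and 0.957 for brk, from 21 slices, with none listed for tsg. In the 3 embryos with both copies, tsg read -0.0282, -0.0180 and -0.0303 in the trunk and -0.260, -0.557 and -0.766 at the anterior end, so that its anterior end leaned more to the D. melanogaster copy than its trunk in each of them. For brk the anterior end was at 0.0369, -0.0971 and 0.0435 and the trunk at -0.0793, -0.264 and -0.0351, the opposite order.

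Of the 5 autosomal genes, 0 were called maternally biased by limma, against 59.8% of all genes, and 0 of all genes were called paternally biased. At an unadjusted p under 0.05 these counts were 0 of 5 and 0 as well, and edgeR and DESeq2 called 0 of the 3 genes with allele counts. RNA laid down by the mother reads as an excess of her copy in both crosses. For trunk against ends, 0.709% of 4373 genes were called more D. simulans in the trunk, 0.526% more D. melanogaster, and 0.343% different between the crosses. Of the 5 genes limma called 0, though 2 in each direction had an unadjusted p under 0.05. Among all 4373 genes, 453 and 289 had such a p in these directions. The R2 of position reached 0.45 for 1.36% of 4323 genes, and for 3 of the 5 genes, with 0.483 for scw, 0.466 for tld and 0.703 for srw. It was 0.443 for cv-2 and 0.270 for dpp. No p-value goes with R2, because slices from the same embryo are not independent. It fell below 0.45 for scw without simXmel embryo 2 (0.448), and for tld without melXsim embryo 3 (0.442) or simXmel embryo 1 (0.432), and rose above it for cv-2 without melXsim embryo 3 (0.540).

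Patterns of total expression were also compared between the directions of the cross by the earth mover distance, the share of the length over which expression has to be moved to turn a pattern into another. The distance between directions exceeded that within directions for tld (4.96% against 1.67%), srw (4.55% against 2.59%) and cv-2 (2.92% against 2.07%). These 3 reached p = 0.1 in an exact one-sided permutation test, the smallest that 3 embryos against 2 allow, as 20.4% of 4519 genes did. The other 5 genes had p-values of 0.7 to 1. Between the parental embryos the distance was 22.5% for scw, 11.3% for srw, 9.42% for dpp and 8.02% for tld, and 1.46 to 5.26% for the other 4.

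Likeness of pattern along the axis is given as Pearson's r of log2(FPKM + 1) over slices, averaged over the 5 hybrid embryos, among 4519 genes. The gene most like tld was sog (r = 0.874), and brk was second to CG6885 for sog (0.880), followed by rho (0.880), a protease gene of the neuroectoderm. The pattern nearest to srw was that of tsg (0.781), and nearest to tsg were the homeotic gene Antp (0.809) and srw. The gene most like cv-2 was the pair-rule gene opa (0.918). The genes nearest to dpp were fkh, Psc and CG7029 (0.752 to 0.771), of which fkh is a gene of the embryo's ends, and those nearest to scw were term, CG7271 and Pepck (0.641 to 0.655). Slices of an embryo share their library batch and their neighbours, so no p-value is given. Between dpp and sog r was negative in all 7 embryos, from -0.836 to -0.455.

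Other genes of the pathway were counted for comparison. Of 16 other ligands and extracellular modulators, 8 were tested for expression along the axis. The trunk was higher for tok, a protease gene related to tld (0.92 ± 0.09, adjusted p = 0.00164), and for the glypican gene dally (0.68 ± 0.12, 0.0105), and the ends were higher for cv (-0.66 ± 0.13, 0.0192). Of 10 receptors and transducers 9 were tested and 0 passed in limma. At an unadjusted p under 0.05, 4 of the 9 were lower in the trunk, as were 1942 of all 6869 genes. Of the 13 genes that respond to Dpp dorsally, 11 were tested, and 4 were higher in the trunk and 4 at the ends. Among these were zen, a homeobox gene of the dorsal side (3.49 ± 0.28), tin (-2.29 ± 0.31) and peb (-2.07 ± 0.33). Over all genes 4.35% were called higher in the trunk and 16% at the ends. Between the anterior and posterior parts, cv (0.73), wit (0.45) and shn (0.44) were higher anteriorly and tok (-0.37) and Mad (-0.28) posteriorly. Of the response genes tin (1.57) was higher anteriorly and 3, among them peb (-1.82) and zen2 (-0.74), posteriorly. These calls came from 8, 9 and 11 genes tested in the 3 lists, against 7.98% and 5.05% of all genes in these directions. For level by mother limma called 0 genes of the 3 lists. At an unadjusted p under 0.05, 3 of 8, 0 of 9 and 1 of 11 were higher in simXmel, as were 1209 of all 6869 genes. The median trunk difference was -0.03, -0.19 and 0.08 in the 3 lists, and -0.09 over all genes.

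In the whole-embryo ASE of these lists, tok (log2 ratio 0.86) and the receptor gene wit (1.21) were called D. simulans-biased in both crosses. They were 1 of 7 and 1 of 8 tested, against 2.86% of all genes. A maternal bias was called for 59.8% of all genes. Close to that share were 4 of 7 other ligands and modulators, among them mav, dlp and myo, and 4 of 8 receptors and transducers, among them put, Mad and Med. A maternal bias was called for 0 of 7 response genes and, as given before, 0 of the 5 autosomal genes followed here. For ASE along the axis, Ance, which encodes a dorsal peptidase, was the 1 gene of the 3 lists that passed. Its anterior part was more D. melanogaster than its posterior part (-0.33 ± 0.03, limma adjusted p = 0.0251). Between these parts 7, 8 and 7 genes of the lists were tested, and 0.88% of all genes were called in this direction.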

How the data were processed

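Slices of 7 embryos were sequenced by SMART-seq2 from poly-adenylated RNA, and the submitters' notes name CASAVA 1.8.2, STAR 2.4.2a and Cufflinks 2.2.1. Reads were aligned to a release 5 genome with SNPs masked. The FPKM values were computed by the authors with Cufflinks in each slice. The ASE score of a gene was deposited by the authors as the difference of D. simulans and D. melanogaster reads over their sum, after reads with a mapping bias were removed. The allele counts were deposited per SNP and per gene, and they were used for genes whose coordinates are the same in releases 5 and 6 (3005 genes, among them dpp, scw and srw). UTR and coding parts come from the release 6 annotation. Columns of 27 other samples were not used.

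Slices the authors kept were averaged per embryo and region. Genes with a mean of at least 1 FPKM in 2 embryos were tested on log2(FPKM + 1), and allele ratios on a log2 scale, with limma 3.58.1 in R 4.3.3 over the 5 hybrid embryos, and p-values were adjusted over all genes by the method of Benjamini and Hochberg at 0.05. For whole-embryo ASE an embryo needed 3 slices with a value, and for a region 1. A species or maternal bias had to pass in both directions of the cross, and the larger of the 2 adjusted p-values is its p. Allele counts were also tested with edgeR 4.0.16 and DESeq2 1.42.0. X-linked ASE was not tested. Each fit was tested on simulated data. Depth is known for allele counts only.

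The genes, their lists and the rule for the genes named were chosen with earlier results of these data known. All 8 genes are described, the 3 genes of highest likeness are named for each, and from each list up to 3 called genes of largest change. Alternatives were the pseudocount, filters, rescaling, all deposited slices, the width of the ends, the replicate block, library batch and leaving out each embryo. Leaving out the 2 slices with pole cell RNA and reading subsets of SNPs were chosen after seeing the data.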

Additional observations from a re-analysis of the deposited data

Results flagged for a closer look

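For cv-2 the ASE contrast of trunk and ends had opposite signs in the directions of the cross. The ends were more D. melanogaster than the trunk in the 3 melXsim embryos and more D. simulans in the 2 simXmel embryos, and the contrast in simXmel minus that in melXsim was -0.455 (limma, interaction adjusted p = 0.0681). Ends of cv-2 hold 1 to 3 slices with ASE per embryo, at levels of 0.042 to 4.34 FPKM.

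In the simXsim embryo, which carries no D. melanogaster copy, 2.43% of the brk signal was assigned to D. melanogaster (mean ASE 0.951 over 25 slices), against 0.280% assigned to D. simulans in melXmel. For dpp, tld and sog the share in simXsim was 0.102 to 1.05%. The brk locus lies inside that of CG1677, and its part in this value was not tested.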

How the results depend on the processing

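Of 508 values of these genes under an alternative, 460 were counted as unchanged, 28 lost a call, 9 gained one, 8 changed sign and 3 moved. Unchanged meant the same direction and side of the threshold. For R2 it meant the side of 0.45 alone, and for subsets of SNPs the same sign with a shift below the SD between embryos. Values not called in either setting also count as unchanged, among them all 51 for maternal bias. The 460 are therefore no measure of how well calls held. The number of genes called for level by mother was 1194, and 622 with no filter. Leaving out single embryos gave 577 to 1292 for level by mother, 692 to 1084 of 1397 for trunk against ends and 511 to 765 of 895 between the anterior and posterior parts. For species bias it gave 108 to 274 of 236, for ASE in trunk against ends 0 to 3 of 54, and for ASE in anterior against posterior 0 to 5 of 101. Species bias was called for 1622 genes with 1 coefficient for species, for 82 by edgeR and for 89 by DESeq2, which tested 1506 genes. Maternal bias was called for 2756 genes, for 826 by edgeR and for 858 by DESeq2. The R2 of position reached 0.45 for 59 genes, and for 90 with ASE centred in each embryo.

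Among the genes described, signs changed for values that had not passed. On leaving out single embryos, the level difference by mother ran from -0.63 to 0.18 for tld, from -1.30 to 0.13 for sog, from -0.67 to 0.083 for brk and from -0.0047 to 0.29 for cv-2, and the anterior minus posterior level of dpp from -0.039 to 0.17. For cv-2, species bias was 0.036 with slices weighted by FPKM, and trunk minus ends in ASE was 0.080 with ends of 20%. The distance of scw between directions exceeded that within by 0.146 with 10 FPKM added. Coding SNPs moved the log2 ratio of summed allele counts of dpp from -0.33 to -0.14 and that of scw from -0.88 to -0.67.

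Replicate number 1 of both crosses was in the first library batch and the others in later ones, but the labels do not say that a number marks a pairing. Over 6869 genes, deviations from the cross means correlated with r = 0.092 between embryos numbered 1 and 0.018 between those numbered 2. The 2 simXmel embryos deviate from their mean by equal and opposite amounts. Each r therefore only changes sign with the other simXmel embryo (-0.092 and -0.018), and these values cannot decide whether numbers mark pairs. With the replicate block, 884 genes were called for level by mother, and tsg stood at -0.92 (limma adjusted p = 0.0818). With 5 embryos, calls in ASE along the axis rest on each embryo, the ends rest on 1 to 6 slices, and the causes of these changes were not tested.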
